A study of Mus musculus with 25 samples.

Results

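Cytosolic ribosomal protein genes encode the proteins that, with ribosomal RNA, build the ribosome of the cytosol. They were selected by name, as genes whose symbol is Rpl or Rps followed by a number, Rplp followed by 0, 1 or 2, or Rpsa. S6 kinase genes, Rps19bp1 and every symbol ending in -ps were left out. Of 30142 genes read by a probe set with a single symbol, 45 met this rule, 26 named for the large subunit and 19 for the small subunit. Where a gene had several probe sets, which was so for 6 of the 45, the probe set with the highest mean over all arrays stood for it.

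The values came from 25 arrays of dorsal root ganglia from lumbar levels L3 to L5, the clusters of sensory neuron cell bodies that serve the hind limb. All animals were male C57BL/6 mice. Naive mice had no operation, sham mice had a control operation on the right knee, and DMM mice had the medial meniscus of that knee destabilized, a surgical model of osteoarthritis. Surgery was at 10 weeks of age, and tissue was taken 4, 8 or 16 weeks later, from mice 14, 18 or 26 weeks old, with naive mice matched for age. There were 3 arrays in each of 8 groups, and sham at 8 weeks held 1, because the submitters left out arrays that failed their quality control. A naive series over time is therefore a series over age, and "with age" below refers to that series. No array batch is given, so age and batch cannot be told apart in it. Whether arrays of a group are single animals or pools is not given in the sources used here either. If they are not separate animals, the p-values measure technical spread only. All 16 sensory neuron markers listed for this tissue lay above the brightness filter, but so did 67.2% of all genes, so passing it does not identify the tissue. Their mean log2 level on naive arrays at 4 weeks was 14.65 to 14.80. The 95th percentile of the negative controls was 8.21 to 8.77 over the arrays.

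In the ribosome, the small subunit reads the messenger RNA and the large subunit joins amino acids, and the protein chain leaves through a tunnel in the large subunit. Ribosomal protein genes are transcribed at a high rate in most cells and are usually controlled together. Their messenger RNAs commonly begin with a 5′ terminal oligopyrimidine tract, a C followed by a run of C and T, through which the mTOR kinase regulates their translation. In sensory neurons, ribosomes are found both in the cell body and along the axon.

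The name rule took in more than the standard set. The tissue-restricted or variant paralogs Rpl3l, Rpl10l, Rpl22l1, Rpl39l, Rpl7l1 and Rps27l entered. So did Rps23rg1, a retroposed copy of Rps23, and Rpl6l, Rps3a2 and Rps3a3, 3 genes that RefSeq lists as pseudogenes. Rpl37rt entered through its updated symbol. Rpl32l, named as like Rpl32, entered too, while Rpl32 itself lay only on probe sets with several symbols. For Rpl12, Rpl27, Rpl31, Rpl35, Rpl41 and Rpl7a, the identifier of the chosen probe set named another chromosome than the one RefSeq gives for the gene, against 99.7% of single-symbol probe sets on the same chromosome. Such a probe set may read RNA of a near-identical copy, and values of these 6 are uncertain in that respect. A further 42 ribosomal protein symbols, among them Rpl13a, Rpl5, Rps6, Rplp1 and Rplp2, lay only on probe sets that carry several symbols and were not analysed here. Genes with many near-identical copies are in general hard to separate on a hybridisation array.

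Promoter sequence is shown first, because the genes that fell with age below were read against the tract named above. RefSeq's promoter table (GRCm38.p6, 250 bases before to 50 after each annotated start) held 37 of the 45 genes. A C at the annotated start followed by 4 or more pyrimidines was found in 5 of 37 genes (13.5%) and in 3.01% of all 27025 genes of the table. When, as a looser rule chosen after the first count, the first C was allowed to lie within 5 bases of the start, 16 of 37 genes (43.2%) and 21.2% of all genes held it. Among the 17 genes of the table that fell with age in naive mice, 8 held it (47.1%), a share close to that of all 37. The windows below run from 15 bases before to 15 after an annotated start of 4 genes that fell with age, picked because they hold a run, which is in capitals. Rpl41, Rpsa, Rplp0 and Rpl22, which also fell, hold none near their starts. They are Rpl35 (chr2:39005117-39005146, minus strand), a protein at the tunnel exit, Rpl12 (chr2:32961697-32961726, plus strand), a protein of the stalk base, Rps24 (chr14:24490663-24490692, plus strand), a small-subunit protein, and Rpl39 (chrX:37085208-37085237, minus strand), which lines the exit tunnel.
Rpl35: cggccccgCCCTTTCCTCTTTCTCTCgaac
Rpl12: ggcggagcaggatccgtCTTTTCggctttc
Rps24: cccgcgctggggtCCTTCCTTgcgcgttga
Rpl39: cctaagctccgCCTCTagcgacttcttcta
In Rpl35 the run spans the annotated start, in Rps24 it begins shortly before it, and in Rpl12 it begins after it. The shorter run of Rpl39 lies mostly before the annotated start and ends on it. The starts of RefSeq are those of its transcripts and need not be those used in these ganglia. The only probe set of Rpl12 names chromosome 10, so its fall may not belong to the promoter shown here.

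The letters CCGGAAG, the core bound by ETS factors such as GABP, were searched on both strands of the same windows of promoter. They occurred in 16 of 37 genes (43.2%) and in 9.93% of all genes. Among the 17 genes with a promoter entry that fell with age in naive mice, 10 held them (58.8%). The following stretches show the match in capitals, on the strand of the gene, for the genes whose age difference was among the largest. They are Rpl39 (chrX:37085184-37085208, minus strand, 23 bases after the start), Rpl41 (chr10:128549209-128549233, minus strand, 56 bases before), Rps27l (chr9:66946086-66946110, plus strand, 9 bases after) and Rpsa (chr9:120127569-120127593, plus strand, 188 bases before).
Rpl39: aatcgcgttCTTCCGGtcccggcct
Rpl41: gtaaggcagCCGGAAGtcgctgtct
Rps27l: gcctctatcCCGGAAGttgctgagg
Rpsa: ccccagctaCTTCCGGcctggggtc
Rpl39 and Rpsa carry the reverse complement, and Rpl41 and Rps27l the letters as searched. The YY1 core ATGGCGGC was in 1 of 37 genes (2.70%) and 2.60% of all genes, and CTCGCGAG, the middle of the M8 promoter motif, in 4 of 37 (10.8%) and 1.04%. The table holds genes of every kind, and these shares describe letters in a window, not binding.

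Values are log2 intensities as deposited, so a difference of 1 is a doubling, and levels of different probe sets are not set against each other. Genes with a mean of 4.523 or less, the value at percentile 40 of the probe set means, were not tested, which left 20260 genes (67.2%) and 43 of the 45 ribosomal protein genes. Rpl10l, at 4.55, was just inside the limit, and Rpl39l, at 4.49, was just outside it, as was the muscle paralog Rpl3l at 3.87. Array medians lay between 4.88 and 4.97, and those of the negative control probe sets between 5.06 and 5.35. Rps14 (mean 5.63), Rps28 (5.85) and Rps19 (6.01) were not far above these medians. The 95th percentile of the negative controls was 8.21 to 8.77 over the arrays, and genes named below as called, such as Rps18 (mean 6.36), Rpl6 (7.48), Rps24 (7.77) and Rpl7 (8.00), lay below it. Differences were tested with limma over all 25 arrays, two-sided, with Benjamini-Hochberg adjustment over the 20260 genes, and "called" below means an adjusted p under 0.05. The alternative settings and each array left out in turn are given at the end.

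Ribosomal protein genes were lower in naive mice at 16 than at 4 weeks, which is meant here by a fall with age. Over the same times the median difference was 0.13 in sham mice and -0.04 in DMM mice, as given below. In naive mice, 40 of the 43 tested were lower at 16 weeks and 21 were called lower (limma), against 12.7% of all genes called lower. None was called higher, and 1, Rpl31, was higher at an unadjusted p under 0.05. The median difference was -0.22, beside -0.07 over all genes tested. Both subunits took part, with 11 of 24 large-subunit and 10 of 19 small-subunit genes called lower. Before adjustment, 23 were lower at p under 0.05, against 22.7% of all genes. In 24 of the 43 the highest array at 16 weeks lay below the lowest at 4 weeks, against 26.2% of all genes. The count of 21 was 14 without naive array 1 of 4 weeks, 14 without naive array 1 of 16 weeks and 18 to 21 without any other array of these groups.

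Rpl39, the small tunnel protein, had the largest difference. Its log2 values on naive arrays were 10.80, 10.95 and 10.73 (4 weeks), 10.58, 10.54 and 10.40 (8 weeks), and 10.15, 10.30 and 10.31 (16 weeks). All arrays at 16 weeks lay below all arrays at 8 weeks, and those below all at 4 weeks. The fitted difference between 16 and 4 weeks was -0.57 ± 0.08 (SE; limma adjusted p = 0.000242), a 1.49-fold lower value.

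Rpl41, a very short basic protein, began at 16.09, 15.91 and 15.78 on the naive arrays of 4 weeks, read 15.68, 15.70 and 15.52 on those of 8 weeks, and ended at 15.32, 15.51 and 15.39 on those of 16 weeks. Its difference was -0.52 ± 0.08 (limma adjusted p = 0.000417), with no overlap between 4 and 16 weeks. The probe set used for Rpl41 is one of those named for another chromosome. The probe set on its own chromosome gave -0.38 ± 0.07 (limma adjusted p = 0.00125), so both fell. For Rpl27, the difference was -0.39 ± 0.07 with the chosen probe set and -0.29 ± 0.06 with that on its own chromosome, and for Rpl35 it was -0.35 ± 0.10 and -0.37 ± 0.06, all 4 called. For Rpl7a the values were 0.01 and -0.16, neither called.

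Rpsa, a small-subunit protein also known as the laminin receptor precursor, read 11.47, 11.41 and 11.39 at 4 weeks and 11.03, 11.07 and 10.97 at 16 weeks. The arrays of the groups were apart, with a difference of -0.40 ± 0.07 (limma adjusted p = 0.00148). Rplp0, the base of the stalk that recruits translation factors and a common reference gene in PCR, read 11.69, 11.75 and 11.70 at 4 weeks and 11.29, 11.52 and 11.27 at 16 weeks. The groups did not overlap here either, and the difference was -0.35 ± 0.07 (limma adjusted p = 0.00197). Rps18, another reference gene, fell by 0.24 (limma adjusted p = 0.00921), from a mean of 6.51 ± 0.06 to 6.27 ± 0.05 (SD, n = 3).

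Rps27l, a p53-inducible paralog of Rps27, read 8.77, 8.67 and 8.76 on naive arrays of 4 weeks, 8.26, 8.34 and 8.22 on those of 8 weeks, and 8.15, 8.29 and 8.43 on those of 16 weeks. Its values at 8 and 16 weeks overlapped, and both groups lay below that at 4 weeks. The difference between 16 and 4 weeks was -0.44 ± 0.10 (limma adjusted p = 0.00434).

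**Figure D1:**
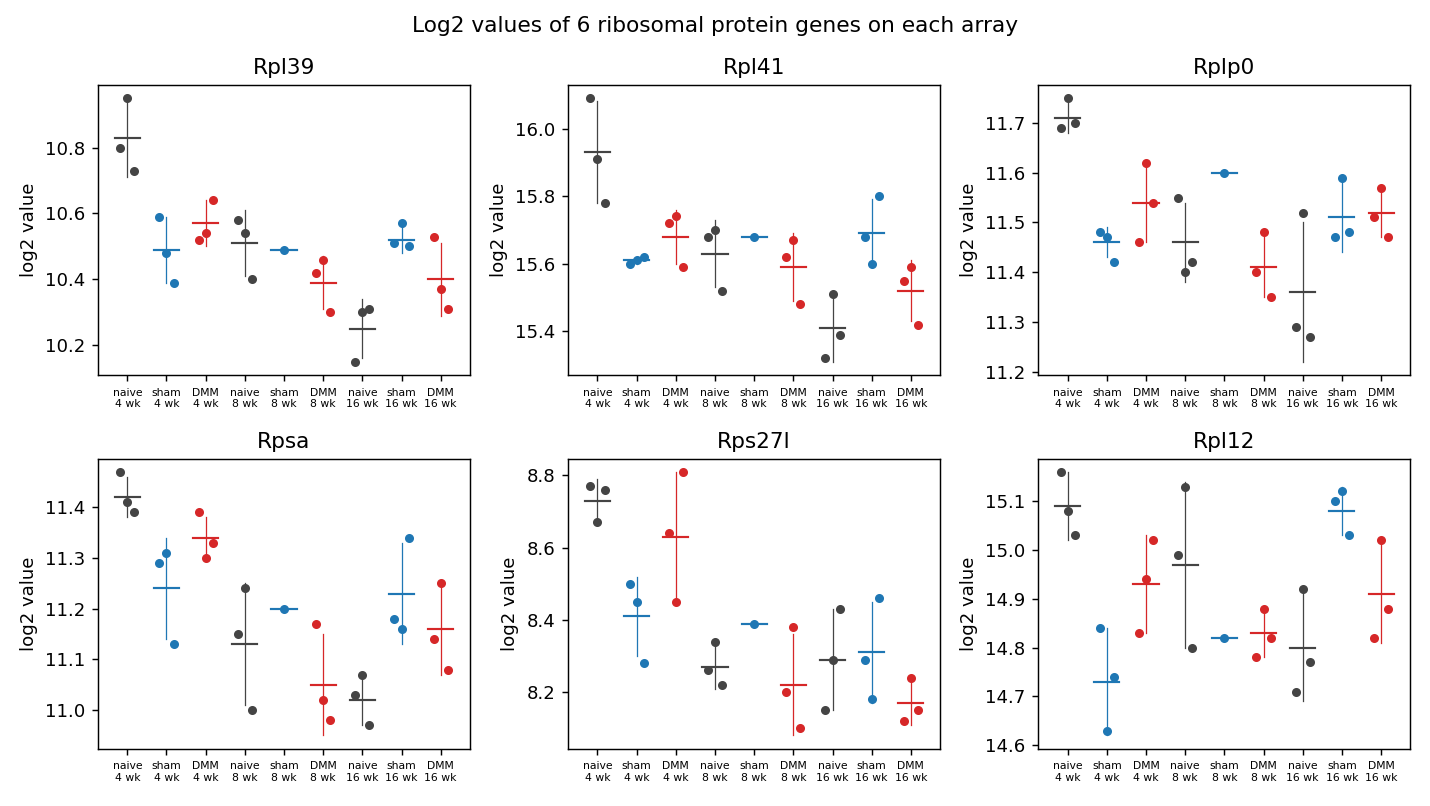
Log2 values of Rpl39, Rpl41, Rplp0, Rpsa, Rps27l and Rpl12 on each array (points) by group and weeks after surgery, with group means (horizontal lines) and SD (vertical lines, none for the single sham array at 8 weeks). For Rpl39, Rpl41, Rplp0 and Rpsa, naive mice have the highest group mean at 4 weeks and the lowest at 16 weeks.

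Other large-subunit genes called lower at 16 weeks were Rpl22 (-0.35), an RNA-binding protein of the tunnel rim, Rpl7 (-0.34), Rpl19 (-0.30), Rpl12 (-0.29) and Rpl6 (-0.28). The Rpl32-like gene Rpl32l (-0.39), counted with the large subunit by name, was called lower as well. Other small-subunit genes called lower were Rps29 (-0.32), Rps4x (-0.30), an X-linked gene, Rps7 (-0.28), Rps14 (-0.28), Rps20 (-0.28), Rps24 (-0.22) and Rps3a1 (-0.17). Of the paralog pairs, Rpl22 was called and Rpl22l1 was not (-0.14 ± 0.11), and the difference between them was not tested. The pseudogenes Rps3a2 (-0.15 ± 0.07) and Rps3a3 (-0.17 ± 0.08), copies of Rps3a1, had differences near that of Rps3a1 and were not called.

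Some genes showed little difference with age. Rpl11, which with Rpl5 forms the particle that restrains Mdm2, had a difference of -0.05 ± 0.05, with a 95% interval from -0.16 to 0.06. Rpl4 (-0.04 ± 0.06), Rpl10a (-0.01 ± 0.10) and Rpl38 (0.04 ± 0.09), a protein known for its role in the translation of Hox genes, were likewise not called. Rps19, the gene most often mutated in Diamond-Blackfan anaemia, differed by -0.12 ± 0.06 (limma adjusted p = 0.179). Rpl31 was the exception in direction. It read 9.59, 9.62 and 9.30 at 4 weeks and 9.66, 9.82 and 9.97 at 16 weeks, so that every later array was higher, and the difference was 0.32 ± 0.12 (limma adjusted p = 0.0699). Its probe set is named for another chromosome, and no probe set on its own chromosome was found.

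**Figure D2:**
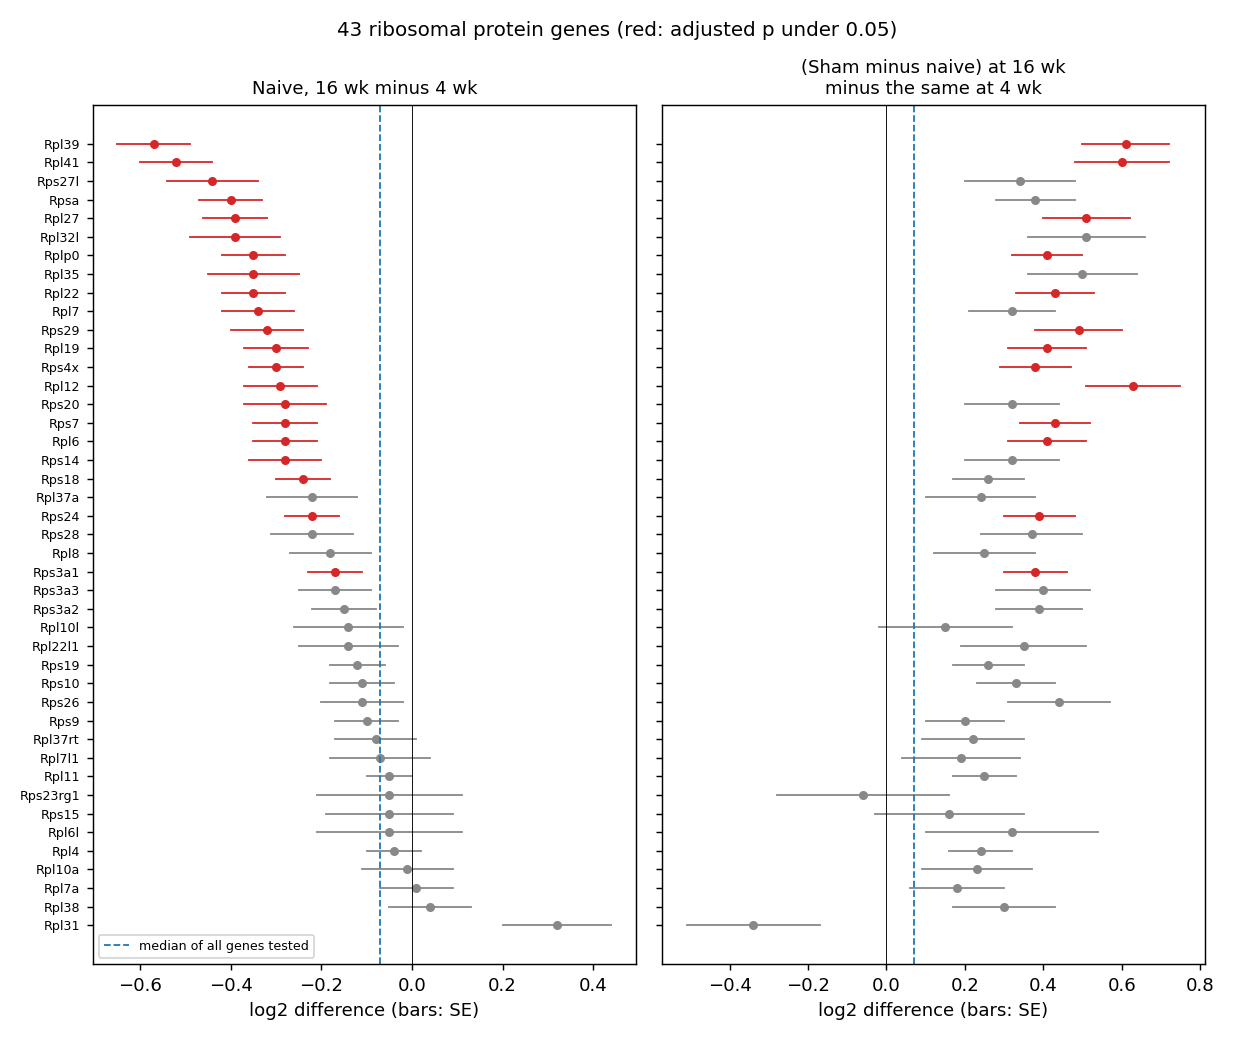
Fitted log2 differences of the 43 tested genes (points, bars are SE), for naive mice at 16 minus 4 weeks (left) and for the sham minus naive difference at 16 weeks minus that at 4 weeks (right). Red marks an adjusted p under 0.05, 21 genes on the left and 13 on the right, and the dashed lines are the medians of all genes tested, -0.07 and 0.07. Genes are in the order of the left panel, from Rpl39 to Rpl31.

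At 8 weeks part of the fall with age was already called. Against 4 weeks, 37 of 43 genes were lower in naive mice and 6 were called lower, against 4.27% of all genes. These were Rps27l (-0.46 ± 0.10, limma adjusted p = 0.013), Rpl39 (-0.32), Rpl41, Rpsa (-0.29), Rpl27 and Rplp0, and all 6 were also called at 16 weeks. Without adjustment 14 passed a p of 0.05 in that direction, against 16.6% of all genes. The count of 6 was 1 without naive array 1 of 4 weeks and 1 without naive array 3 of 8 weeks, and between 2 and 4 without any other array of these groups.

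Few genes were called over time in operated mice. In DMM mice, 26 of 43 genes were lower at 16 than at 4 weeks, with a median of -0.04. Over all genes tested, 11168 of 20260 were lower, with a median of -0.02. Of the 43, 1 was called lower (limma), against 1.80% of all genes. That gene was Rps27l, at 8.64, 8.45 and 8.81 at 4 weeks and 8.12, 8.24 and 8.15 at 16 weeks, with no overlap. Its difference was -0.47 ± 0.10 (limma adjusted p = 0.0164), close in size to that of naive mice, but it was not called without DMM array 1 or without DMM array 3 of 4 weeks. The count lower at an unadjusted p under 0.05 was 7, against 10.5% of all genes. Rpl38 was higher at 16 weeks by 0.34 ± 0.09 (limma adjusted p = 0.0546).

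Between 4 and 8 weeks in DMM mice, 42 of 43 genes were lower, with a median of -0.13. None was called in limma, against 0.0197% of all genes called lower, and 16 were lower at an unadjusted p under 0.05, against 8.08% of all genes. The smallest p-values belonged to Rps27l (-0.41 ± 0.10), Rps7 (-0.27 ± 0.07) and Rpsa (-0.28 ± 0.07), with adjusted p of 0.106, 0.106 and 0.111.

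In sham mice the direction between 4 and 16 weeks was opposite, with 38 of 43 genes higher at 16 weeks and a median of 0.13. A single gene, Rpl12, was called higher, against 0.928% of all genes. The only probe set of Rpl12 is named for another chromosome, so its values may come from a near-identical copy. It read 14.84, 14.63 and 14.74 at 4 weeks and 15.10, 15.12 and 15.03 at 16 weeks, with no overlap and a difference of 0.35 ± 0.08 (limma adjusted p = 0.0389). This call was lost without any 1 of the 6 sham arrays and without the brightness filter. Without sham array 1 of 4 weeks, Rps26 was called in its place, a gene named here after its value was seen. An unadjusted p under 0.05 was reached by 15 genes, all higher, against 10.3% of all genes, among them Rpl11 (0.20 ± 0.05) and Rps3a1 (0.21 ± 0.06).

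Sham and naive mice were next compared at each time. These comparisons share naive arrays with those above and are given by their own values. At 4 weeks, 41 of 43 genes were lower in sham mice, with a median of -0.19 beside -0.05 over all genes. None was called (limma), against 0.281% of all genes called lower, and 27 were lower at an unadjusted p under 0.05, against 11.2% of all genes. The smallest adjusted p was 0.0571, for Rpl39, whose sham arrays of 10.59, 10.48 and 10.39 all lay below the naive arrays given above (difference -0.34 ± 0.08). Rpl12 (-0.35 ± 0.08) and Rpl22 (-0.30 ± 0.07) followed, both with an adjusted p of 0.0635.

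At 16 weeks, 40 of 43 genes were higher in sham than in naive mice, with a median of 0.15 beside 0.02 over all genes. None was called in limma, against 0.00494% of all genes called higher, and 20 were higher at an unadjusted p under 0.05, against 8.53% of all genes. Rps29, which read 12.34, 12.35 and 12.38 in sham and 12.05, 12.05 and 12.09 in naive mice, had the smallest p (0.30 ± 0.08, limma adjusted p = 0.219). Rpl41 (0.29 ± 0.08) and Rpl39 (0.27 ± 0.08) came next, also without overlap between groups.

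The change of the sham effect from 4 to 16 weeks, a comparison added after first results were known, was higher by a median of 0.34 in the 43 genes and by 0.07 over all genes. It was called higher in 13 of them (limma), against 1.91% of all genes, and lower in none. The naive difference between 16 and 4 weeks enters this change, so the 2 results are not separate. At an unadjusted p under 0.05, 31 were higher, against 14.9% of all genes, and 0 were lower. Rpl39 (0.61 ± 0.11, limma adjusted p = 0.0111), Rpl12 (0.63 ± 0.12, 0.0115) and Rpl41 (0.60 ± 0.12, 0.013) had the smallest p-values. The others were Rpl27, Rps29, Rps7, Rpl22, Rpl19, Rplp0, Rpl6, Rps24, Rps3a1 and Rps4x, at 0.38 to 0.51. The count was 4 without naive array 1 or without sham array 3 of 16 weeks, 5 without naive array 1 or without sham array 2 of 4 weeks, and 6 to 8 without sham array 2 of 16 weeks, sham array 3 of 4 weeks or naive array 2 of 4 weeks. It was also 5 with quantile normalization, 3 with cyclic loess and 5 with the replicate number within time as a block.

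**Figure D3:**
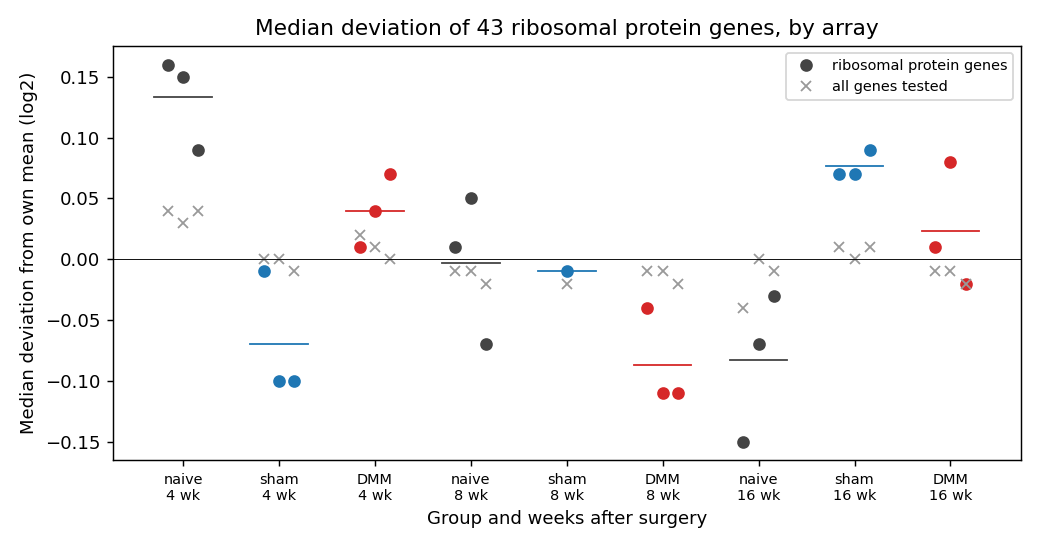
Median over the 43 tested genes of each gene's deviation from its own mean over all arrays (log2), per array (points, colours by treatment) with the group mean (lines), beside the same median over all genes tested (crosses). Naive arrays at 4 weeks lie at 0.09 to 0.16, naive arrays at 16 weeks at -0.15 to -0.03, sham arrays at -0.10 to -0.01 at 4 weeks and 0.07 to 0.09 at 16 weeks.

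The same values can be read array by array, beside the share of all genes above their own mean. On the naive arrays of 4 weeks, 36 to 39 of the 43 genes stood above their own mean over all arrays, against 59% to 63% of all genes. On those of 16 weeks 2, 13 and 16 did, against 38.5% to 48.7%. In sham mice the counts were 18, 10 and 6 at 4 weeks (46.2% to 49.9% of all genes) and 30, 29 and 38 at 16 weeks (48.4% to 55.2%). These sham groups were apart in the other direction. The DMM arrays had 24, 31 and 33 (4 weeks, 49% to 56.8%), 15, 6 and 2 (8 weeks, 41.6% to 47.4%), and 24, 33 and 13 (16 weeks, 44.6% to 46.7%). The lone sham array at 8 weeks had 20 (45%).

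DMM mice were compared with both controls. Against naive mice, no gene was called at any time (limma), against 0.00494% of all genes called lower at 4 weeks, 0.0395% called lower at 8 weeks and 0.0148% called higher at 16 weeks. The median differences were -0.08, -0.11 and 0.10. At an unadjusted p under 0.05, 7 were lower at 4 weeks (6.53% of all genes), 8 lower at 8 weeks (5.35%) and 11 higher at 16 weeks (5.43%). The smallest p belonged to Rpl39 at 4 weeks (-0.26 ± 0.08), to Rpl35 at 8 weeks (-0.31 ± 0.10) and to Rpl8, a protein near the peptidyl transferase centre, at 16 weeks (0.29 ± 0.09), with adjusted p of 0.37, 0.29 and 0.429.

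Averaged over the times, no gene was called between DMM and naive mice in limma, against 0.0296% of all genes called lower, and the median was -0.02. Rpl35 was lower at an unadjusted p under 0.05 (-0.17 ± 0.06, adjusted p = 0.474), 1 gene against 4.28% of all genes. The interval of the averaged difference for Rplp0 ran from -0.10 to 0.06, and for Rpl39 from -0.17 to 0.02.

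Against sham mice, 41 of 43 genes were higher in DMM mice at 4 weeks, with a median of 0.10, and 34 were lower at 16 weeks, with a median of -0.06. None was called in limma at either time, against 0% of all genes called higher at 4 weeks and 0% called lower at 16 weeks. At an unadjusted p under 0.05, 11 were higher at 4 weeks (3.12% of all genes), and 3 were lower (4.68%) and 1 higher at 16 weeks. Rps7 had the smallest p at 4 weeks. It read 13.36, 13.39 and 13.48 in DMM and 13.19, 13.15 and 13.11 in sham mice, with no overlap (0.26 ± 0.07, limma adjusted p = 0.831).

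The DMM effect against naive mice was higher at 16 than at 4 weeks by a median of 0.18, with no gene called (limma), against 0.00494% of all genes called higher. At an unadjusted p under 0.05, 18 were higher, against 7.77% of all genes, with Rpl39 first (0.41 ± 0.11, adjusted p = 0.275). For the DMM effect against sham mice the same median was -0.16, with no gene called, against 0% of all genes called lower. At an unadjusted p under 0.05, 11 were lower, against 4.77% of all genes, with Rps7 first (-0.32 ± 0.09, limma adjusted p = 0.732).

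Genes that work with the ribosome were read from lists, whose counts stand against 12.7% of all genes called lower and 6.08% called higher in naive mice at 16 against 4 weeks. There, 5 of 15 elongation factors and other messages with an oligopyrimidine tract were called lower (33.3%) and none higher, with a median of -0.12. They were Eef1b2 (-0.35), Eef1g (-0.19), the ribosomal fusion gene Fau (-0.34), Tpt1 (-0.28) and Btf3 (-0.22). Of 20 initiation factors, 8 were called lower (40%) and none higher, among them Eif3b (-0.41), Eif4g2 (-0.33), the cap-binding Eif4e (-0.32) and the helicase Eif4a1 (-0.29). Of 43 genes of ribosome biogenesis, 8 were called lower (18.6%) and none higher, led by the snoRNP proteins Nop58 and Nop10 (both -0.40).

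Of 20 genes of mTOR and S6 kinase signalling, 4 were called higher (20%, against 6.08% of all genes) and none lower. They were Tsc2 (0.66) and Tsc1 (0.33), which together restrain mTOR complex 1, Rptor (0.28), a subunit of that complex, and Eef2k (0.18), a kinase that slows elongation. Of 75 mitochondrial ribosomal protein genes, 6 were called lower and none higher, with a median of -0.09. That share (8%) was below the 12.7% of all genes. Of 193 ribosomal protein pseudogenes with -ps symbols, 68 were called lower (35.2%) and none higher, with a median of -0.24. The pseudogene probe sets may read RNA of the parent genes, and they are no independent measurement.

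Macrophage markers differed in the same direction as the ribosomal protein genes in some comparisons and in the opposite direction in others. All 13 macrophage markers passed the brightness filter, and all 13 were lower in naive mice at 16 than at 4 weeks, 9 of them called against 12.7% of all genes, with a median of -0.62. All 13 were also lower in sham than in naive mice at 4 weeks, 4 of them called against 0.281% of all genes called lower. Their mean log2 level was 7.44 to 7.79 on naive arrays at 4 weeks and 6.84 to 7.01 at 16 weeks. In sham mice it was 6.87 to 7.16 at 4 weeks and 7.10 to 7.32 at 16 weeks, and in DMM mice 7.33 to 7.49 and 7.29 to 7.55. At 8 weeks it was 7.03 to 7.23 on naive arrays, 7.15 to 7.49 on DMM arrays and 7.01 on the lone sham array. In DMM against naive mice at 8 weeks, 39 of 43 ribosomal protein genes were lower (median -0.11) while 9 of 13 macrophage markers were higher (median 0.22). In DMM against sham mice at 16 weeks, 34 ribosomal protein genes were lower (median -0.06) while 12 of 13 macrophage markers were higher (median 0.22). No gene of either list was called in these 2 comparisons (limma). All 8 fibroblast and meningeal markers were lower in naive mice at 16 weeks, with a median of -0.49. Of these, 1 was called, against 12.7% of all genes called lower. In the change of the sham effect, 8 of 13 macrophage markers were called higher (median 0.83), against 1.91% of all genes. None of 8 fibroblast and meningeal markers was (median 0.81). An unadjusted p under 0.05 was reached by 3 of these 8, where 14.9% of all genes were higher at that p.

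Of the 16 sensory neuron markers, 9 were lower in naive mice at 16 weeks, beside 12927 of the 20260 genes tested, with a median of -0.03. Tubb3 and Prph were called lower and Rbfox3 higher, against 12.7% of all genes called lower and 6.08% called higher. Their mean log2 level was 14.65 to 14.80 on naive arrays at 4 weeks and 14.66 to 14.69 at 16 weeks. On sham arrays the level was 14.695 to 14.846 at 4 weeks and 14.533 to 14.698 at 16 weeks. The other marker lists had median differences of -0.31 (satellite glia), -0.18 (myelinating Schwann cell), 0.03 (non-myelinating Schwann cell), -0.08 (lymphocyte, 2 genes tested), -0.02 (endothelial), 0.31 (pericyte and smooth muscle), -0.04 (skeletal muscle), -0.45 (adipocyte, 1 gene), 1.21 (red cell, 1 gene) and -0.11 (spinal cord glia, 2 genes tested). In bulk tissue, fewer cells of a type and less RNA per cell cannot be told apart. The part of these cell type markers in the differences of the ribosomal protein genes was not tested.

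**Figure D4:**
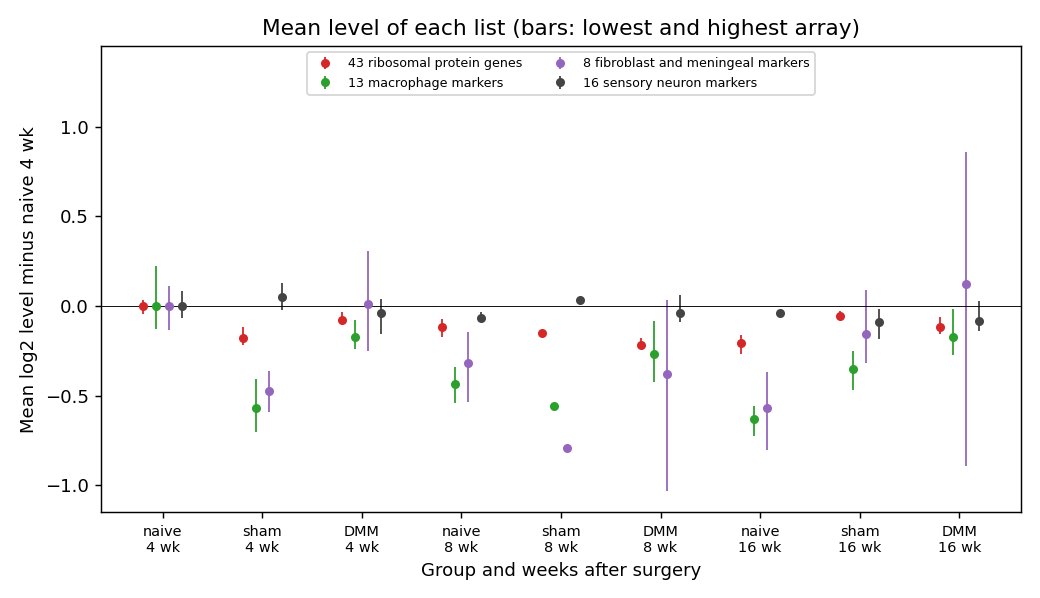
Mean log2 level of 43 ribosomal protein genes, 13 macrophage markers, 8 fibroblast and meningeal markers and 16 sensory neuron markers, each as the difference from its own mean in naive mice at 4 weeks, by group (points), with the lowest and highest array (bars). Ribosomal protein genes and macrophage markers are both low in sham mice at 4 weeks and in naive mice at 16 weeks. The mean of the sensory neuron markers is 14.715 and 14.676 in naive mice at 4 and 16 weeks. In sham mice it goes from 14.763 to 14.627, while that of the ribosomal protein genes goes from 10.13 to 10.255. The lowest mean of the ribosomal protein genes is in DMM mice at 8 weeks (10.09), where the mean of the macrophage markers (7.30) is above that of naive mice at 8 weeks (7.13).

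Within groups, the spread of the ribosomal protein genes was small, with a median residual SD of 0.099, beside 0.121 over all genes tested. The smallest residual SDs belonged to Rpl11 (0.052), Rpl4 (0.058), Rps3a1 (0.058), Rpl3l (0.063) and Rps18 (0.065). Rpl3l, at a mean of 3.87, lay below the brightness filter and is not among the 43 genes tested. The largest belonged to Rpl6l (0.205), Rps23rg1 (0.204), Rps15 (0.178), Rpl10l (0.153) and Rpl31 (0.152), of which only Rps15 and Rpl31 are standard ribosomal protein genes. Rpl39 had a residual SD of 0.091 and spanned 0.81 over all arrays, from 10.15 to 10.95.

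Deviations from the group means, over 25 arrays with 16 residual degrees of freedom, had a mean correlation of 0.19 over the 903 pairs of ribosomal protein genes, beside 0.01 over all pairs of genes tested. They were positive in 72.1% of the pairs and in 50.9% of all pairs. The pairs share the arrays, and with them any effect of sample quality or cell makeup. The pair with the highest value was Rps10, a small-subunit protein, with the pseudogene Rps3a2 (0.90), followed by Rps3a2 with Rps3a3 (0.84) and Rps10 with Rps14 (0.84). Rpl6 went the other way, with a mean of -0.16 with the other genes and -0.77 with Rpl22l1.

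Across the 9 groups, naive mice at 4 weeks had the highest mean for Rpl39, Rpl41, Rplp0, Rpsa, Rpl27, Rpl22, Rps29, Rps4x and Rpl19, and naive mice at 16 weeks the lowest for each of them. For Rpl12, Rps3a2 and Rps3a3 the lowest mean was in sham mice at 4 weeks. For Rps27l it was in DMM mice at 16 weeks (8.17 ± 0.06), and its means at 16 weeks of 8.29 ± 0.14 in naive and 8.31 ± 0.14 in sham mice (SD, n = 3) lay within the spread of each other. Rpl11 was highest in sham mice at 16 weeks (7.62 ± 0.04) and lowest in sham mice at 4 weeks (7.42 ± 0.04). Rpl38 was highest in DMM mice at 16 weeks (10.82 ± 0.09) and lowest in DMM mice at 8 weeks (10.34 ± 0.11).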

How the data were processed

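Lumbar dorsal root ganglion RNA was labelled with biotin by the array manufacturer's standard protocol, per the labels. The deposited values are log2 intensities, 1 per probe set, a scale read from the values themselves. How the authors normalized and summarised the arrays is not given in the sources used here, nor is any array or scan batch. Of 65956 transcript probe sets, 30604 carried 1 symbol (827 symbols were updated by Entrez identifier through RefSeq) and were kept. The members and gene lists were chosen with earlier results of these data known.

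From the deposited values, 1 mean per group was fitted over all 25 arrays in limma 3.58.1 (R 4.3.3), with 16 residual and 3.28 prior degrees of freedom, a constant prior, and 16 two-sided comparisons. The lone sham array at 8 weeks had its own mean and entered no comparison. There is no read depth. The number of arrays limits the precision, and a 95% interval for 3 arrays against 3 reached 0.203 to each side at the median spread. The procedure was tested on simulated data. Named genes were those called (up to 20 by size of difference), the 3 of smallest p in each direction, fixed genes such as Rplp0, Rps18, Rpl11, Rps19 and Rpsa, paralogs, and the 5 of largest and smallest residual SD. Other genes are named as examples. Lists gave counts and medians only.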

Additional observations from a re-analysis of the deposited data

Results flagged for a closer look

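The sham against naive difference changed from 4 to 16 weeks in 13 ribosomal protein genes, by the limma test of that change (adjusted p under 0.05). All were called higher, against 1.91% of all genes. The naive difference between 16 and 4 weeks enters this change, and each of the 13 was called lower there. In sham mice over time, 1 ribosomal protein gene was called. The changes were 0.63 for Rpl12, 0.61 for Rpl39, 0.60 for Rpl41, 0.51 for Rpl27, 0.49 for Rps29, 0.43 for Rpl22, 0.43 for Rps7, 0.41 for Rpl19, 0.41 for Rpl6, 0.41 for Rplp0, 0.39 for Rps24, 0.38 for Rps3a1 and 0.38 for Rps4x. Of these, Rpl39 kept its call in all 22 alternatives run. In each of the 13, the sham group lay below naive at 4 weeks and above it at 16 weeks. Picking genes by this change favours such a crossing, so it is no further support. Of all 43 genes, 41 were lower in sham mice at 4 weeks and 40 higher at 16 weeks. Among the 20260 genes tested, 12944 were lower at 4 weeks and 11608 higher at 16 weeks. The mean log2 level of the macrophage markers was also lower in sham than in naive mice at 4 weeks and higher at 16 weeks, and its part was not tested.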

How the results depend on the processing

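The count of 21 genes called lower in naive mice at 16 against 4 weeks lay between 14 and 22 in every alternative run, and 10 of the 20 named genes kept the call in all 16: Rpl39, Rpl41, Rpl27, Rpl22, Rpl7, Rplp0, Rpsa, Rps4x, Rps18 and Rps27l. Its median of -0.22 was -0.171 with cyclic loess and, leaving out 1 array, ran from -0.252 to -0.153. The median for DMM mice at 16 against 4 weeks (-0.037) ran from -0.065 to 0.003 with 1 array left out, above 0 without DMM array 1 of 16 weeks, and no other median changed sign. Of 21 same-numbered pairs, 8 correlated over 0.1 (-0.359 to 0.318). For naive and sham mice at 16 weeks all 3 did (0.108, 0.224 and 0.308), and that comparison had 0 calls with and without the block. In no other comparison did every pair, and equal numbers were not taken as pairs there. With the replicate number as a block, naive mice at 16 weeks had 19 calls, sham mice over time 0 (from 1), and the change of the sham effect 5 (from 13). The latter was 5 with quantile normalization, 3 with cyclic loess, 21 with array weights and 4 to 13 with 1 array left out, and its median of 0.34 was 0.295 with quantile normalization, 0.255 with cyclic loess and, with 1 array left out, 0.284 to 0.375. Calls in sham mice at 16 against 4 weeks (1) were 0 without the filter, with median centring, quantile normalization, cyclic loess, only the groups compared or own-chromosome probe sets, 5 with the filter at the 60th percentile, 8 with array weights and 0 to 1 with 1 array left out, and the median was 0.054 with quantile normalization and 0.079 with cyclic loess. Calls in naive mice at 8 against 4 weeks (6) were 15 with quantile normalization, 3 with cyclic loess, 1 with only the groups compared and 1 to 4 with 1 array left out, and the median was -0.166 with quantile normalization. Calls in DMM mice at 16 weeks (1) were 2 with the stricter filter, quantile normalization or own-chromosome probe sets, 0 with only the groups compared and 0 to 1 with 1 array left out, and the median was -0.102 with quantile normalization. Calls of sham against naive at 4 weeks (0) were 4 with the stricter filter, 9 with array weights and 1 with own-chromosome probe sets. With quantile normalization and cyclic loess, the median was 0.053 and 0.056 for DMM against naive at 16 weeks (0.050 to 0.119 with 1 array left out), 0.093 and 0.094 for sham against naive at 16 weeks, and 0.124 and 0.101 for the change of the DMM effect against naive (0.128 to 0.204 with 1 array left out). The cause of these shifts was not tested. Scaling also moved the split of all genes called, from 2579 lower and 1232 higher to 4016 and 962 with quantile normalization for naive mice at 16 weeks, and from 37 and 387 to 160 and 206 with quantile normalization and 281 and 148 with cyclic loess for the change of the sham effect. For sham against naive at 4 weeks it moved from 57 lower and 10 higher to 35 and 79 with cyclic loess, for naive mice at 8 weeks from 865 and 407 to 2681 and 372, for DMM mice at 16 weeks from 364 and 218 to 1111 and 122, and for sham mice from 169 and 188 to 680 and 89, the last 3 with quantile normalization. Probe sets near the negative controls, such as Rps14, Rps28 and Rps19, limit what their differences can show. Leaving out 1 array that leaves 2 in a group keeps the pooled spread. The own-chromosome and retrocopy alternatives were chosen after seeing the data.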
